A study of Homo sapiens with 6 samples.

Results

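The genes described here encode chaperones, disulfide isomerases, stress sensors and degradation factors of the endoplasmic reticulum (ER), the compartment in which secreted and membrane proteins fold. They are 35 genes chosen by symbol, of which 34 had a row among the 35820 genes of the deposited tables. HSPA5, the ER Hsp70 chaperone, was not analysed here. Of the 34, 28 (82.4%) had counts high enough to be tested, among 13965 genes tested in all. The 6 that were not tested are SDF2L1, PDIA3, P4HB, ATF6, ERN1 and DERL3.

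The samples were 3 libraries of a TOP3B knockout and 3 of wild-type (WT) cells, all from HT1080, a human fibrosarcoma cell line. The knockout cells, named E2-2 in the series, carry a CRISPR edit aimed at exon 2 of TOP3B, the gene of a topoisomerase that acts on DNA and RNA. No further treatment is given for either group. The series text names HCT116, a colon cancer line, once for the WT cells, while every sample label names HT1080. The knockout cells are taken here as 1 clone, and the labels do not say that libraries of a group came from separate cultures. Each p-value therefore covers library-to-library spread alone, and that spread may be technical. Ribosomal RNA was depleted from total RNA, so unspliced transcripts could be sequenced beside messenger RNA.

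In the unfolded protein response, 3 sensors in the ER membrane detect proteins that have not folded. ATF6 is cut to release a transcription factor. IRE1, encoded by ERN1, splices the XBP1 messenger RNA so that it encodes a potent activator, and PERK, encoded by EIF2AK3, slows translation and raises ATF4. The first pair of arms raises chaperones and the machinery of ER-associated degradation, which returns misfolded proteins to the cytosol for the proteasome. Fibroblast-like cells secrete much matrix protein and use these genes without added stress. The deposited values are per gene, so spliced and unspliced XBP1 cannot be separated, and neither can activated and full-length ATF6.

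A DNA element links several of these genes. The ER stress response element (ERSE), searched as CCAAT, any 9 bases and CCACG, is known to be bound by the factor NF-Y at its first part and by ATF6 or spliced XBP1 at its second. A shorter form, ERSE-II, was searched as ATTGG, any 1 base and CCACG. Both were looked for on both strands in RefSeq promoter windows of 300 bases (250 before and 50 after the gene start, GRCh38.p14), which matched 31 of the 34 genes. ERSE stood in 6 of these 31 (19.4%) and in 25 of 27305 genes (0.0916%) with a window. ERSE-II stood in 3 of 31 (9.68%) and in 19 of 27305 genes (0.0696%). The matches are printed with 10 flanking bases on each side and both conserved parts in capitals. The capitals are the same within ERSE and within ERSE-II because the search asked for those letters.
CALR ERSE, chr19:12938374-12938412, minus strand: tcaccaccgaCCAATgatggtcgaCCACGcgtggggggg
CANX ERSE, chr5:179698768-179698806, plus strand: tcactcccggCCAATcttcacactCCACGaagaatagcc
CRELD2 ERSE, chr22:49918544-49918582, minus strand: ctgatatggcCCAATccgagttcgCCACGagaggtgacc
HSP90B1 ERSE, chr12:103930206-103930244, plus strand: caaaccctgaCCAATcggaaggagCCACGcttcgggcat
HSP90B1 ERSE, chr12:103930311-103930349, minus strand: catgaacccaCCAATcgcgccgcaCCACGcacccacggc
PDIA6 ERSE, chr2:10812843-10812881, minus strand: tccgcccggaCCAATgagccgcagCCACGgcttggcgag
XBP1 ERSE, chr22:28800593-28800631, minus strand: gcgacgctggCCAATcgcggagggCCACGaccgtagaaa
HERPUD1 ERSE-II, chr16:56932015-56932045, plus strand: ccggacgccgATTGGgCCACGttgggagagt
HYOU1 ERSE-II, chr11:119057264-119057294, plus strand: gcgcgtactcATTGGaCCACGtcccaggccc
HYOU1 ERSE-II, chr11:119057370-119057400, plus strand: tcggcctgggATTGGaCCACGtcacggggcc
SDF2L1 ERSE-II, chr22:21642104-21642134, minus strand: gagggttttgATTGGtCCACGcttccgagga
The sequence between the conserved parts differs from gene to gene, while HYOU1 and HSP90B1 each hold a pair of matches. The gene start is RefSeq's and need not be the first base of the GENCODE v29 gene: for CANX and PDIA6 the starts beside the matches lie inside that span, from 20.2 to 25.2 kb after its 5′ end. A match is a description of the letters and does not show that a factor bound there.

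Across the 28 tested genes, 1 was called, with an edgeR quasi-likelihood p under 0.05 after Benjamini-Hochberg adjustment over all genes, and it was lower in the knockout. That is 3.57% of them, beside 7.84% of all genes tested (3.21% higher and 4.63% lower). The gene was CREB3L1, an ER-anchored transcription factor of the OASIS family. The other 27 did not pass, and 6 of the 28 (21.4%) had an unadjusted p under 0.05, beside 24.7% of all genes. The 28 fold changes were positive for 15 genes and negative for 13, with a median log2 fold change of 0.07 beside 0.05 for all genes tested. Without knockout replicate 3, described below, the median was -0.08 over 29 tested genes, beside 0.01 for all genes, so its sign rests on that library. The groups did not overlap in 8 of the 28 (28.6%), beside 33.6% of all genes. Of these 8, HSP90B1, MANF, CANX and PDIA6 lay above WT, and XBP1, CREB3L1, HERPUD1 and DERL2 lay below, beside 16.5% and 17.1% of all genes. DESeq2, which tested more low-count genes, called 6 of 31 (19.4%): HSP90B1, MANF and PDIA6 as higher, beside 5.51% of all genes, and XBP1, CREB3L1 and HERPUD1 as lower, beside 7.81%.

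Knockout replicate 3 stood apart from the other libraries, across all genes and among these. CPM is a gene's count scaled to a common library total. Across genes with a mean log2 CPM above 4, the SD of log2 differences was 0.641 and 0.615 between knockout replicate 3 and the other knockout libraries. It was 0.240 between knockout replicates 1 and 2, and 0.270 to 0.330 between WT libraries. In knockout replicate 3, 13 of the 28 genes differed more than 2-fold from the WT mean (46.4%), beside 22.5% of all genes tested. The numbers were 7 and 6 in knockout replicates 1 and 2 (25% and 21.4%), beside 12% and 11.8% of all genes. In the WT libraries they were 2 to 4 (7.14% to 14.3%), beside 3.66% to 3.77% of all genes. The share of these genes was thus above that of all genes in every library. In the WT libraries the genes so counted were DNAJB9, EIF2AK3, EDEM2 and EDEM3 alone, each with some library listed at 0. EIF2AK3, EDEM2 and EDEM3 were also counted in every knockout library, so the excess rests in part on such genes. In knockout replicate 3, 9 of the 28 lay more than 1.5-fold above the mean of knockout replicates 1 and 2. A further 5 lay as far below, 50% in all beside 34.9% of all genes. Set likewise against the other libraries of their group, 11 (39.3%) and 13 (46.4%) lay beyond 1.5-fold in knockout replicates 1 and 2. For all genes the shares were 20.7% and 19.3%. The mean used for knockout replicates 1 and 2 includes knockout replicate 3, so these counts rest in part on that library. HSP90B1, CALR, CREB3L2 and VCP lay below in both of them and above in knockout replicate 3. Among the WT libraries 5 to 8 genes lay beyond 1.5-fold (up to 28.6%), beside 16.2% to 16.7% of all genes. In knockout replicate 3 the genes above were HSP90B1, DNAJB11, CRELD2, CALR, CREB3L2, SEL1L, EDEM1, OS9 and VCP. Those below in the same library were DNAJB9, UGGT1, PDIA6, EIF2AK3 and EDEM2. Without knockout replicate 3, 3 of 29 tested genes passed (10.3%), beside 13.2% of all genes: PDIA6 was higher, beside 5.39% of all genes, and XBP1 and HERPUD1 were lower, beside 7.84%. Mitochondrially encoded transcripts took 5.70% of counts in that library and 8.23% to 10.0% in the others, and the part of this difference in the results was not tested.

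**Figure D1:**
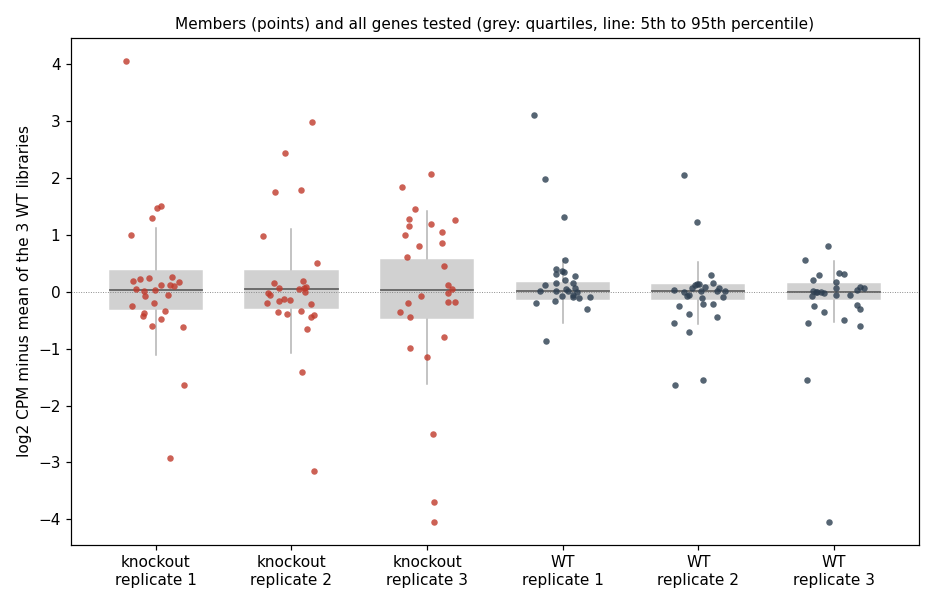
Each point is 1 of the 28 tested genes, placed by its log2 CPM minus the mean of the 3 WT libraries (vertical axis, prior count 2), in each library. Grey boxes and lines give the quartiles and the 5th to 95th percentiles of all 13965 genes tested. The points of knockout replicate 3 spread more widely than those of the other libraries, with 13 genes more than 1 log2 unit from the WT mean.

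The tables list several ER genes at levels that limit what can be read from them. P4HB, the founding protein disulfide isomerase, and DERL3 were listed at 0 in all 6 libraries, as were 2208 of 16526 protein-coding genes (13.4%). PDIA3, the isomerase that works with calnexin and calreticulin, had 4, 3 and 0 counts in the knockout libraries and 5, 0 and 18 in WT. Its pseudogene PDIA3P1 had 85, 89 and 66 counts in the knockout libraries and 102, 119 and 154 in WT. PDIA3 reads are thus uncertain, since they could have been divided with this copy. SEC61A1, the pore of the protein channel that every cell uses, had 14, 0 and 6 counts in the knockout libraries and 11, 13 and 25 in WT. A count of 0 here means only that the gene is listed at 0. Fitted fold changes of DNAJB9, EIF2AK3, EDEM2, EDEM3 and SEC61A1 include such libraries and are not read as a change. The authors' RPKM, a count scaled to gene length and library depth, also depends on a length close to the genomic span. The length implied by count and RPKM lay within 3% of the mean span of a gene's GENCODE v29 transcripts, introns included, for 13 of 27 genes, and between 0.801 and 2.18 times that span for all 27.

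On the RPKM scale, CANX was the most abundant of the group at 81.3 ± 1.48 in the knockout and 73.9 ± 0.626 in WT (SD, n = 3 each). XBP1 followed at 39.0 ± 7.05 RPKM in the knockout and 49.4 ± 1.72 in WT. SYVN1 stood at 26.0 ± 3.23 and 30.1 ± 3.59 RPKM, and HERPUD1 at 21.6 ± 2.58 and 30.0 ± 1.75 RPKM, in knockout and WT. These last levels overlap, so the order of SYVN1 and HERPUD1 is not fixed. SYVN1 shares sequence on its own strand with FAU in GENCODE v29 and its level is uncertain. Next came VCP at 9.47, 11.8 and 38.4 RPKM in the knockout libraries and 12.9 ± 0.238 in WT, so that its place in the knockout rests on replicate 3. CALR stood at 10.9 ± 5.82 RPKM in the knockout and 7.16 ± 0.730 in WT. DERL2 stood at 7.44 ± 0.105 RPKM in the knockout and 7.68 ± 0.203 in WT, and UGGT1 at 5.998 ± 2.18 and 6.45 ± 0.235. The spreads of VCP, CALR, DERL2 and UGGT1 overlap in the knockout. In the WT libraries 13 of the 28 tested genes reached a mean of 1 RPKM. All 34 genes together took 0.396%, 0.387% and 0.430% of counts in the knockout libraries and 0.384%, 0.379% and 0.376% in WT, and CANX alone gave 61.5% to 66.7% of these in the knockout and 62.4% to 62.9% in WT.

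**Figure D2:**
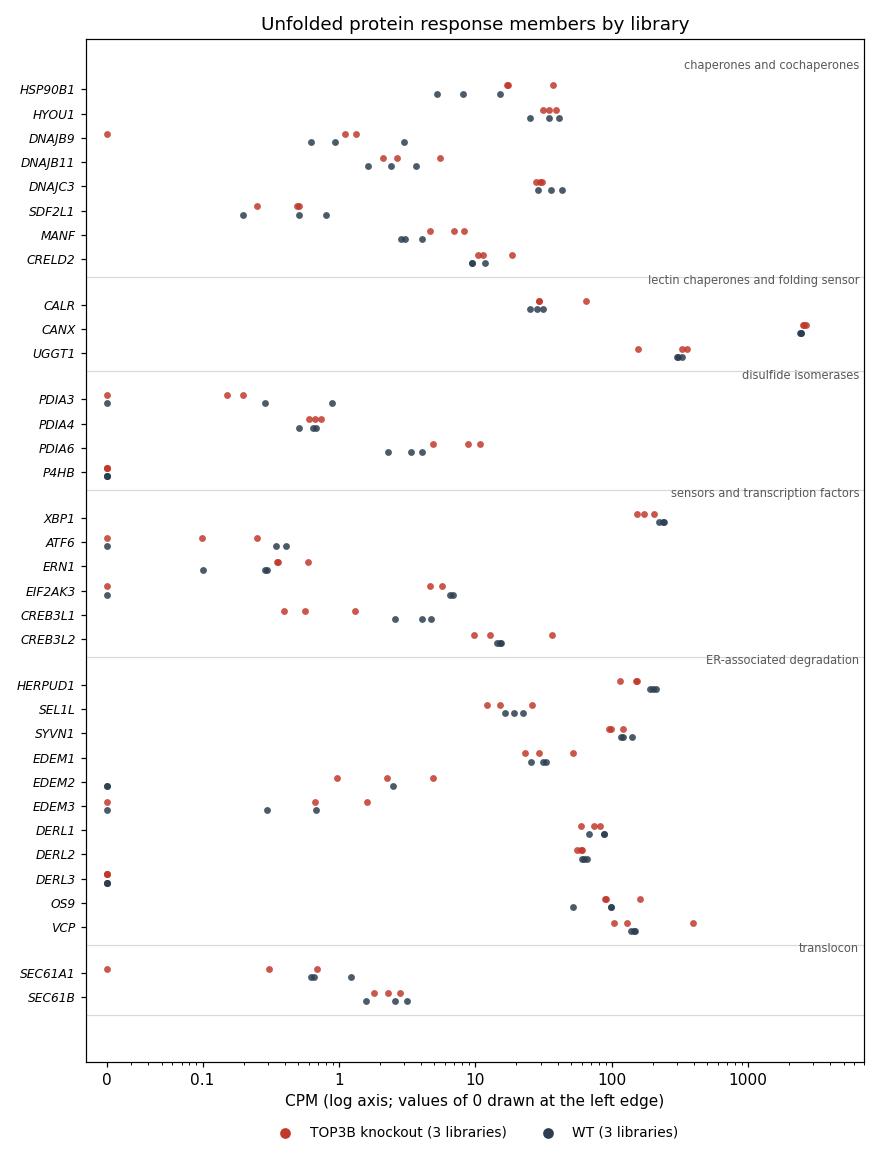
CPM of the 34 genes in the 3 knockout libraries (red, upper row of each gene) and the 3 WT libraries (dark, lower row), grouped by role, on a log axis with values of 0 drawn at the left edge. CREB3L1 shows knockout libraries at 0.394 to 1.31 CPM and WT libraries at 2.56 to 4.73 CPM, while P4HB and DERL3 are at 0 throughout.

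Among the sensors and transcription factors, CREB3L1 fell in the knockout. CREB3L1 is released from the ER by regulated cleavage and is known to drive collagen and secretory genes in bone cells of mice. It stood at 0.394, 1.31 and 0.563 CPM in the knockout libraries, against 4.73, 4.06 and 2.56 CPM in WT (8, 26 and 11 counts against 83, 80 and 52). All knockout libraries lay below all WT libraries. The mean was 0.755 ± 0.487 CPM in the knockout and 3.78 ± 1.11 CPM in WT (SD, n = 3 each), and the fitted level was 4.97-fold lower. On the log2 scale the change was -2.31 ± 0.52 (SE), with an edgeR adjusted p of 0.0443. The call held when knockout replicate 2, the highest of the knockout libraries for this gene, was left out (log2 fold change -2.97, adjusted p = 0.0449) and lost when any 1 of the other 5 libraries was left out, with an adjusted p up to 0.140, while the log2 fold change without knockout replicate 3 was -2.15. CREB3L1 lies on the plus strand of chromosome 11 from 46277661 to 46321422 (GENCODE v29, GRCh38), with no other annotated gene over it. RefSeq places the gene start at 46295159, inside that span and 17.5 kb after its 5′ end, and no window at the 5′ end itself was searched. The 250 bases before the RefSeq start are printed because CREB3L1 is the only gene of the group that passed in edgeR's test with all libraries.
CREB3L1, before the RefSeq start, chr11:46294909-46295158, plus strand, GRCh38.p14: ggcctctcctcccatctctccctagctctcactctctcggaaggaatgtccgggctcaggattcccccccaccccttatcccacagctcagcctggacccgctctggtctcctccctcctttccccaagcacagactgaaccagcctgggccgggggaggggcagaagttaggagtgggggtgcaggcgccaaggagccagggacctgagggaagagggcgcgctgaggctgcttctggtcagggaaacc
None of 5 motifs was found in it, which says only that these letters are not in this window. They were ERSE, ERSE-II, the unfolded protein response element (TGACGTGG, in 0.927% of genes), the cyclic AMP response element (TGACGTCA, in 2.25%) and the ATF4 element (TGATGCAA, in 1.08%), on both strands.

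XBP1 and CREB3L2 did not pass in edgeR's test with all libraries. XBP1 stood at 153, 172 and 205 CPM in the knockout libraries, against 242, 235 and 223 CPM in WT, with every knockout library below every WT library. Its log2 fold change was -0.40 ± 0.12 (SE, 95% interval -0.69 to -0.11), with an edgeR adjusted p of 0.0988. Without knockout replicate 3, the highest of the knockout libraries for this gene, the value was -0.53 and passed (adjusted p = 0.00966). DESeq2 called XBP1 with all libraries (adjusted p = 0.0463). Over the alternatives the adjusted p lay between 0.00966 and 0.253. CREB3L2, the close relative of CREB3L1, stood at 9.69, 12.8 and 36.1 CPM in the knockout libraries, against 15.2, 14.5 and 15.3 CPM in WT. Knockout replicate 3 lay above all WT libraries and the other knockout libraries below them, and the log2 fold change was 0.38 with that library and -0.42 without it, past the threshold in neither case (adjusted p = 0.655 and 0.170).

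Of the 3 stress sensors, EIF2AK3 could be tested. EIF2AK3, which encodes PERK, had 95, 113 and 0 counts in the knockout libraries and 115, 136 and 0 in WT. One library of each group was thus listed at 0 beside more than 90 counts in the others, and the 95% interval of its log2 fold change ran from -4.16 to 3.41. ERN1 had 12, 7 and 7 counts in the knockout libraries and 5, 2 and 6 in WT, and ATF6 had 2, 5 and 0 counts in the knockout libraries and 0, 8 and 7 in WT. Neither reached the count needed for the test. ATF6B, a relative of ATF6 chosen here after its values were seen, stood at 54.6, 51.8 and 59.0 CPM in the knockout libraries and 62.2, 51.7 and 65.4 CPM in WT.

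The promoters of XBP1 and HERPUD1, 250 bases each before a RefSeq gene start, are printed. They were chosen because both genes lay below WT in every knockout library and carry the elements described above. The elements are in capitals on the gene's strand. RefSeq gives XBP1 another start at 28800077, and the 250 bases before that start, not printed here, hold none of the 5 motifs. In HERPUD1 the capitals also mark the ATF4 element, which reads in the opposite direction.
XBP1 promoter, chr22:28800570-28800819, minus strand, GRCh38.p14: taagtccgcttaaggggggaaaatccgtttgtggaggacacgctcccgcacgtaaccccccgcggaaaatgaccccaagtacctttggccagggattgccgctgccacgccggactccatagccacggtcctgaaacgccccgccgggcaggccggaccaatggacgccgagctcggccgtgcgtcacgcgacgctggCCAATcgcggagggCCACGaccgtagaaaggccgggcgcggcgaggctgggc
HERPUD1 promoter, chr16:56931892-56932141, plus strand, GRCh38.p14: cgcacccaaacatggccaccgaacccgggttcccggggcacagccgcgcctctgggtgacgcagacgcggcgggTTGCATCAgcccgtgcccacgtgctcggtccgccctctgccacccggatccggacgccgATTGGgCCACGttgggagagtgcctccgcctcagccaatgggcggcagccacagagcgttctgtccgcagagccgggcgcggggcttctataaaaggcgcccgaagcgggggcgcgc
HERPUD1 holds together the ubiquitin ligase complex of ER-associated degradation and is a known target of all 3 arms. It stood at 149, 153 and 116 CPM in the knockout libraries, against 191, 200 and 211 CPM in WT, without overlap. Its log2 fold change was -0.53 ± 0.13 (SE, 95% interval -0.83 to -0.23), with an edgeR adjusted p of 0.0526. The value was -0.42 without knockout replicate 3 and passed there (adjusted p = 0.0138). With all libraries HERPUD1 passed in DESeq2 (adjusted p = 0.00629), in edgeR with DESeq2 size factors (0.0482) and in edgeR with a filter of 1 CPM in 3 libraries (0.0487). The adjusted p lay between 0.00629 and 0.169 over the alternatives.

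Of the chaperones and cochaperones, 7 were tested and none passed over all genes, while the unadjusted p was under 0.05 for 2 genes, HSP90B1 and MANF, which DESeq2 called. HSP90B1, the ER form of Hsp90, stood at 17.4, 17.1 and 36.7 CPM in the knockout libraries, against 8.09, 5.22 and 15.2 CPM in WT. The groups did not overlap, although WT replicate 3 came close to knockout replicates 1 and 2. The log2 fold change was 1.32 ± 0.47 (SE) with all libraries and 0.85 without knockout replicate 3, with edgeR adjusted p of 0.143 and 0.241. MANF, a secreted ER stress protein, stood at 8.21, 4.68 and 6.91 CPM in the knockout libraries, against 2.85, 3.04 and 4.03 CPM in WT. The groups were apart, and the log2 fold change of 0.99 ± 0.30 (SE) had an edgeR adjusted p of 0.0935. HYOU1, an Hsp110-type partner of the ER Hsp70, stood at 38.7, 34.5 and 31.5 CPM in the knockout libraries, against 34.6, 25.3 and 41.1 CPM in WT, and the groups overlapped.

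DNAJC3, a J protein that also restrains PERK, stood at 29.8, 27.8 and 30.6 CPM in the knockout libraries, against 42.8, 35.7 and 28.7 CPM in WT. The lowest WT library lay within the knockout range, and the log2 fold change of -0.28 had a 95% interval of -0.68 to 0.12. CRELD2, which is secreted on ER stress, stood at 10.4, 11.3 and 18.6 CPM in the knockout libraries, against 9.51, 9.38 and 11.7 CPM in WT. DNAJB11, a J protein of the ER lumen, ranged from 2.11 to 5.53 CPM in the knockout and from 1.62 to 3.64 CPM in WT. DNAJB9, a classical target of spliced XBP1, had 27, 22 and 0 counts in the knockout libraries and 11, 59 and 19 in WT. SDF2L1, a cochaperone of the same lumen, had 10, 5 and 10 counts in the knockout libraries and 14, 10 and 4 in WT. At such counts small changes were not detectable for DNAJB9 and SDF2L1.

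CANX, CALR and UGGT1 form the glycoprotein folding cycle, in which calnexin and calreticulin bind glucosylated glycans and UGGT1 marks unfolded glycoproteins for another round. None of the 3 passed with all libraries or without knockout replicate 3, DESeq2 called none, and no unadjusted p was under 0.05. CANX stood at 2643, 2556 and 2504 CPM in the knockout libraries, against 2450, 2448 and 2385 CPM in WT. Every knockout library was above every WT library, yet the change, 0.08 ± 0.06 on the log2 scale (SE), missed the threshold (edgeR adjusted p = 0.444), and its 95% interval of -0.06 to 0.22 was the narrowest of the group. CALR stood at 29.1, 29.1 and 64.4 CPM in the knockout libraries, against 25.3, 31.4 and 28.2 CPM in WT. The log2 fold change of 0.53 with all libraries was 0.03 without knockout replicate 3. UGGT1 stood at 353, 329 and 156 CPM in the knockout libraries, against 298, 325 and 307 CPM in WT, so that knockout replicate 3 alone lay below WT. The log2 fold change was -0.15 with all libraries and 0.13 without that library, past the threshold in neither case.

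Among the disulfide isomerases, PDIA6 and PDIA4 could be tested. PDIA6, which also attenuates IRE1 and PERK signalling, stood at 8.85, 10.8 and 4.86 CPM in the knockout libraries, against 4.04, 2.28 and 3.34 CPM in WT. The groups did not overlap, with knockout replicate 3 the closest to WT. Its log2 fold change was 1.34 ± 0.37 (SE, edgeR adjusted p = 0.0781) with all libraries and 1.60 (adjusted p = 0.0195) without knockout replicate 3. The lowest and highest adjusted p among the alternatives were 0.0139 and 0.214. PDIA4 had 15, 12 and 13 counts in the knockout libraries and 12, 10 and 13 in WT.

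In ER-associated degradation, 10 of 11 genes were tested and none passed in edgeR's test with all libraries. There was 1 unadjusted p under 0.05, and 1 gene was called by DESeq2, which was HERPUD1. SYVN1, the ubiquitin ligase Hrd1, stood at 121, 94.9 and 98.8 CPM in the knockout libraries, against 117, 120 and 142 CPM in WT, where knockout replicate 1 lay within the WT range. SEL1L, its adaptor, stood at 15.1, 12.1 and 26.1 CPM in the knockout libraries, against 22.2, 16.4 and 19.2 CPM in WT. Knockout replicate 3 was above WT and the other knockout libraries below it. DERL1 and DERL2, which help move substrates out of the ER, were at 71.8 ± 11.3 and 58.3 ± 2.51 CPM in the knockout, and at 81.7 ± 11.4 and 62.6 ± 2.52 CPM in WT (SD, n = 3 each). The 95% intervals of their log2 fold changes were -0.57 to 0.20 and -0.34 to 0.14.

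VCP, the ATPase that extracts substrates from the membrane, stood at 103, 129 and 395 CPM in the knockout libraries, against 146, 147 and 139 CPM in WT. Knockout replicate 3 lay 3.41-fold above the mean of the other knockout libraries, which were both below WT. The log2 fold change was 0.54 with all libraries and -0.32 without knockout replicate 3, and neither passed (edgeR adjusted p = 0.531 and 0.103). OS9, a lectin that delivers glycoproteins to the ligase, stood at 89.5, 90.7 and 160 CPM in the knockout libraries, against 98.9, 97.9 and 52.3 CPM in WT. EDEM1, which trims mannose from misfolded glycoproteins, stood at 23.1, 29.5 and 52.3 CPM in the knockout libraries, against 33.03, 31.5 and 25.4 CPM in WT. In both genes knockout replicate 3 was the highest library of all 6. EDEM2 had 100, 45 and 19 counts in the knockout libraries and 44, 0 and 0 in WT, and EDEM3 had 0, 32 and 13 counts in the knockout libraries and 12, 0 and 6 in WT. The zeros within a group left their 95% intervals at -1.88 to 5.33 and -2.11 to 4.56 on the log2 scale.

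SEC61B, a small subunit of the translocation channel, stood at 2.80, 1.81 and 2.30 CPM in the knockout libraries, against 3.13, 2.59 and 1.57 CPM in WT, with overlap. Neither SEC61B nor SEC61A1 passed.

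**Figure D3:**
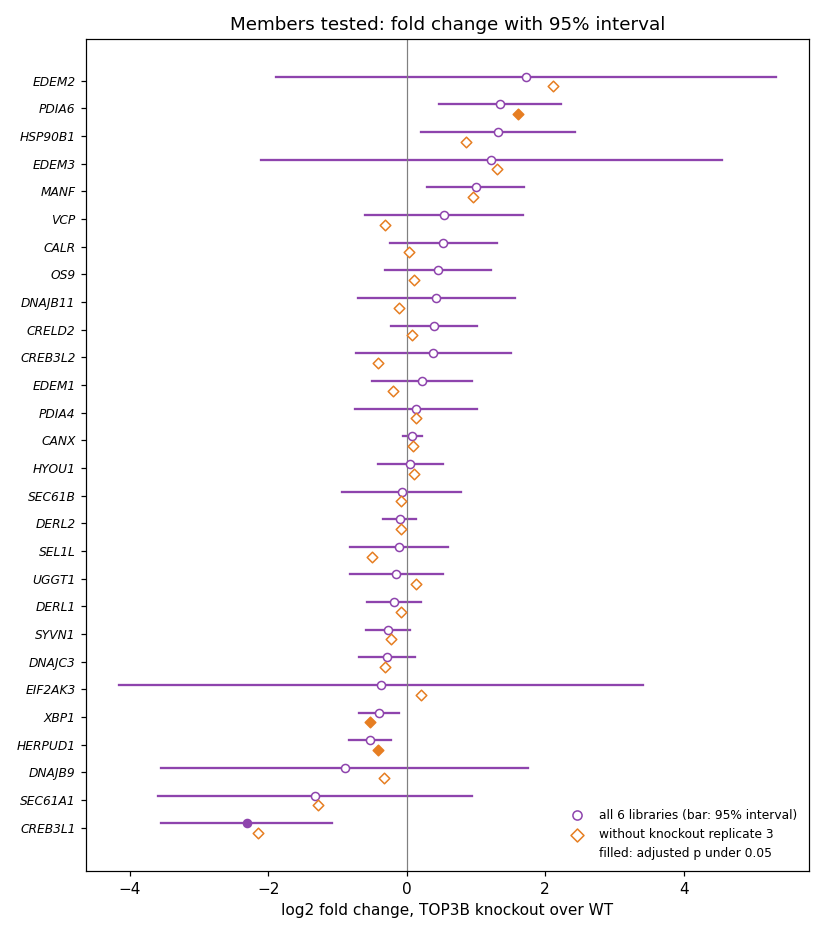
Log2 fold change of TOP3B knockout over WT for the 28 tested genes, with circles and 95% intervals for all 6 libraries and diamonds for the fit without knockout replicate 3. Filled symbols mark an adjusted p under 0.05: CREB3L1 with all libraries, and PDIA6, XBP1 and HERPUD1 without knockout replicate 3.

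The genes that carry ERSE or ERSE-II did not move one way. Of the 8 tested genes with an element, 6 had a positive and 2 a negative log2 fold change, with a median of 0.24, a range of -0.53 to 1.34 and none past the threshold in edgeR's test with all libraries, while DESeq2 called 4 and the same number had an unadjusted p under 0.05, beside 13.3% and 24.7% of all genes. Of the 19 tested genes with a promoter window and no element, 9 were positive and 10 negative, with a median of -0.07, and DESeq2 called 2, as many as had an unadjusted p under 0.05. Without knockout replicate 3 the medians were 0.08 and -0.11. HSP90B1 and PDIA6 on the one hand and XBP1 and HERPUD1 on the other lay on opposite sides of WT in every knockout library.

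Other genes of the secretory pathway were read from 8 lists drawn up around the members. In all 147 of their genes were tested, of which 4 were higher and 7 lower in edgeR's test (7.48%, beside 7.84% of all genes), and the median log2 fold change was -0.06. Without knockout replicate 3, 8 were higher and 23 lower of 148, beside 5.39% and 7.84% of all genes, and DESeq2 called 29 with all libraries, beside 13.3% of all genes. The list of ER cochaperones and proline isomerases had 4 of 19 genes lower and none higher (21.1%), beside 4.63% of all genes lower and 3.21% higher, with a median of -0.25. In the fit without knockout replicate 3, 7 were lower and none higher, beside 7.84% and 5.39% of all genes. FKBP7, an ER peptidyl-prolyl isomerase, fell 2.14-fold, at 6.49, 5.94 and 6.19 CPM in the knockout libraries against 13.7, 12.6 and 13.5 CPM in WT (log2 fold change -1.10 ± 0.16 SE, adjusted p = 0.0121). FKBP14, a related enzyme that acts on collagen, fell 1.93-fold, at 6.89, 7.05 and 6.24 CPM in the knockout libraries against 11.5, 13.5 and 13.97 CPM in WT. The others were the J proteins DNAJB12 and DNAJB14, named after their values were seen, at log2 fold changes of -0.77 and -0.43. FKBP7 passed in 2 and the other 3 genes in 1 of the 6 fits without 1 library.

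ER-phagy receptors and the coat of ER exit vesicles had 2 of 19 genes lower and 1 higher (15.8%), with a median of -0.29. Of all genes, 4.63% were lower and 3.21% higher. The unadjusted edgeR p was under 0.05 for 9 of the 19, beside 24.7% of all genes, and DESeq2 called 7, beside 13.3%. SEC31A, the outer coat subunit, fell 1.83-fold, at 452, 455 and 316 CPM in the knockout libraries against 702, 759 and 779 CPM in WT. SEC24C, a cargo adaptor of the inner coat, fell 1.74-fold, at 200.2, 209 and 149 CPM in the knockout libraries against 319, 340 and 311 CPM in WT. RTN3, an ER-shaping protein and receptor for ER-phagy, rose 1.42-fold, at 331 ± 22.8 CPM in the knockout and 233 ± 16.9 CPM in WT (SD, n = 3 each). Without knockout replicate 3, 6 genes of this list were lower and 1 higher, where all genes gave 7.84% lower and 5.39% higher. SEC24C passed in 2 and SEC31A and RTN3 in 1 of the 6 fits without 1 library.

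In the PERK arm, 13 genes were tested, of which BBC3 was higher and NUPR1 lower. That is 15.4%, beside 3.21% of all genes higher and 4.63% lower. BBC3, a BH3-only death gene, rose 1.45-fold, at 67.3 ± 7.96 CPM in the knockout and 46.3 ± 1.75 CPM in WT (SD, n = 3 each). NUPR1, a small stress-induced nuclear protein, fell 4.74-fold, at 0.317 ± 0.152 CPM in the knockout and 1.53 ± 0.0956 CPM in WT. Both NUPR1 levels are low, and its log2 fold change of -2.25 carries an SE of 0.46. The ATF4 and DDIT3 genes, named after their values were seen, encode the PERK-arm activators ATF4 and CHOP and did not pass, at log2 fold changes of -0.08 and -0.52. UGGT2, the paralog of UGGT1, rose 1.56-fold, at 53.6, 47.2 and 53.6 CPM in the knockout libraries against 29.3, 31.9 and 37.9 CPM in WT. It was the single call among 19 glycoprotein genes (5.26%), beside 7.84% of all genes. SPCS2, a signal peptidase subunit, rose 1.38-fold, the single call among 23 genes of signal recognition and the translocon (4.35%, beside 7.84% of all genes). BBC3, NUPR1, UGGT2 and SPCS2 each passed in 1 of the 6 fits without 1 library. All 4 calls were also lost with no filter on low counts (adjusted p of 0.0672, 0.0548, 0.0570 and 0.0691), that of BBC3 with limma-voom (0.0508), and that of UGGT2 with limma on log2 RPKM plus 1 or 0.1 (0.0684 and 0.0734).

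None of the 16 disulfide exchange enzymes, 23 other degradation factors and 16 sensor regulators passed in edgeR's test with all libraries. Unadjusted p-values under 0.05 numbered 2, 2 and 4 there, beside 24.7% of all genes, and DESeq2 called 2, 1 and 4, beside 13.3%. Leaving out knockout replicate 3, the first and last lists each had 1 of 16 genes higher and 2 lower. The second had none of 24 higher and 2 lower. In that fit 5.39% of all genes were higher and 7.84% lower. The most abundant genes of these lists by RPKM were QSOX1, AUP1 and TMBIM6. QSOX1 is a sulfhydryl oxidase, AUP1 a degradation factor of lipid droplets and the ER, and TMBIM6 a regulator of ER calcium. QSOX1 stood at 696 ± 90.0 CPM in the knockout and 749 ± 13.1 CPM in WT, AUP1 at 68.03 ± 5.32 and 57.7 ± 2.72 CPM, and TMBIM6 at 629 ± 213 and 576 ± 6.15 CPM (SD, n = 3 each). QSOX1 passed without knockout replicate 3, at a log2 fold change of -0.23 (edgeR adjusted p = 0.0262), against -0.11 with all libraries, and AUP1 and TMBIM6 did not pass.

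**Figure D4:**
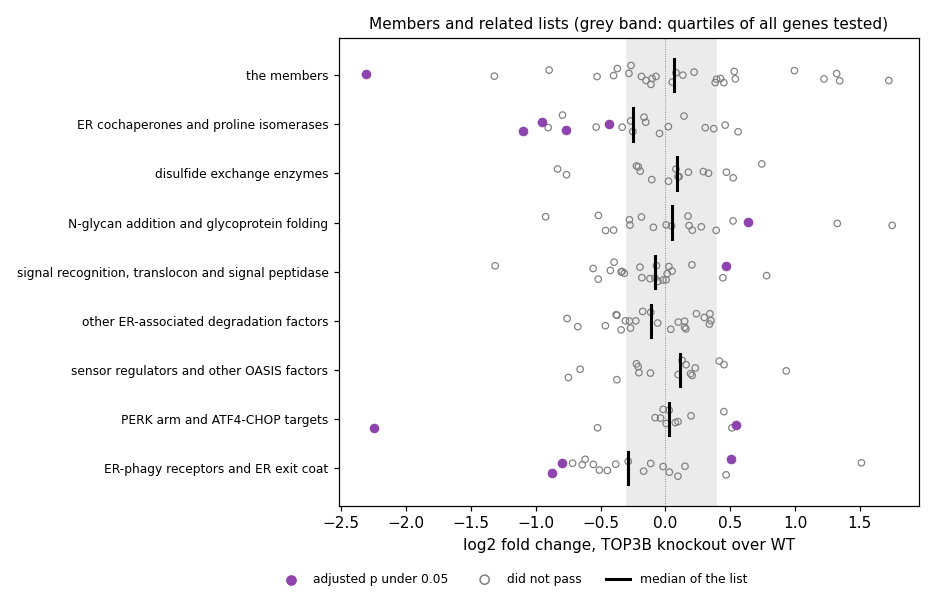
Log2 fold change of TOP3B knockout over WT for the 28 tested members (top) and the genes of 8 related lists, with filled points for an adjusted p under 0.05, a black bar at each list's median and a grey band for the quartiles of all genes tested. The medians of the 9 rows lie between -0.29 and 0.11, and the list of ER cochaperones and proline isomerases has 4 filled points, all below 0.

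Depth was close among libraries, at 18501898 to 20340136 counts in the knockout and 17919106 to 20475280 in WT, and no pair agreed within sampling noise (chi-square per degree of freedom 9.27 or more). The targeted gene does not check the labels: TOP3B stood at 20.02, 19.3 and 18.5 CPM in the knockout libraries and 30.5, 19.1 and 23.1 CPM in WT, and a small edit can leave the transcript in place. Among 10 fibroblast and mesenchymal markers, VIM and FN1 were abundant while COL3A1, THY1 and FAP were under 10 counts in every library. Their summed level was 13982 to 15282 CPM in the knockout and 22587 to 23963 CPM in WT, with FN1 and COL1A1 lower, and its part in the results above was not tested. Of 12 colon epithelial markers 7 were under 10 counts in every library, with KRT20 and CDX2 at 0, and the sum was 110 to 133 CPM in the knockout and 107 to 119 CPM in WT.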

How the data were processed

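Total RNA depleted of ribosomal RNA was sequenced from 3 TOP3B knockout and 3 WT HT1080 libraries. For each gene the authors deposited estimated counts and RPKM values. Salmon 1.10.1 and the build hg19 appear in the submitters' processing notes without a role. The annotation and any use of strand are not given in the sources used here. Reads of overlapping or antisense genes therefore cannot be told apart. The deposited estimated counts were whole numbers, and 1 entry named differently in the 2 tables was left out.

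Low genes were removed with filterByExpr. The test was edgeR's quasi-likelihood F test with TMM scaling (edgeR 4.0.16, R 4.3.3). Benjamini-Hochberg adjustment covered 13965 genes, and calls needed an adjusted p under 0.05. Standard errors and 95% intervals come from the F statistic, fold changes put the knockout over WT, and CPM uses TMM-scaled library sizes. Alternatives were DESeq2 1.42.0, limma 3.58.1 (voom, and trend on log2 RPKM plus 1 or 0.1), 3 other scalings, 2 other filters and each library left out. The fit was also run on simulated data. These held no outlying library like knockout replicate 3, so they do not show how the fit behaves with one.

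The members and the lists around them were chosen with earlier results of these data known. All members could be named, and from each list up to 2 called genes per direction with the largest change, or else its most abundant gene by RPKM. Positions come from GENCODE v29 and RefSeq, both on GRCh38, a build other than the one in the notes. Knockout labels carry no replicate number, so those libraries were numbered in accession order. With 3 libraries per group, the number of libraries limits precision.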

Additional observations from a re-analysis of the deposited data

How the results depend on the processing

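The number of genes called was 1095 over all genes and 1 among the members. DESeq2 gave 2064 and 6, edgeR with DESeq2 size factors 2 members and edgeR with a filter of 1 CPM in 3 libraries 2 members. With 1 library left out at a time, the counts were 223 to 1899 over all genes and 0 to 3 among the members, with 1899 and 3 without knockout replicate 3. The cause was not tested. CREB3L1 passed under all 9 alternatives that kept every library. These read the same 6 libraries and are not independent of one another. Knockout replicates 1 and 3 lay under 1 CPM for CREB3L1 (0.394 and 0.563), so it met the filter of 1 CPM in 3 libraries through the WT libraries.

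No fold change of a member changed direction under an alternative that kept every library. With 1 library left out, the log2 fold change ranged from -0.12 to 0.22 for HYOU1, -1.45 to 0.051 for DNAJB9, -0.11 to 0.76 for DNAJB11, -0.36 to 0.13 for UGGT1, -0.97 to 0.21 for EIF2AK3, -0.42 to 0.71 for CREB3L2, -0.51 to 0.10 for SEL1L, -0.20 to 0.45 for EDEM1, -0.32 to 0.87 for VCP, -0.31 to 0.14 for SEC61B and -0.18 to 0.31 for TMBIM6. None of these genes passed in any of these fits. No paired analysis was possible because the knockout labels carry no replicate number.

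Low counts limit PDIA3, ATF6, ERN1, SDF2L1, DNAJB9, EDEM2 and EDEM3, where small changes were not detectable at this depth.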
